A study of Mus musculus with 6 samples.

Results

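The 10 genes described here encode the subunits of the transcription factor NF-κB and proteins grouped as its inhibitors. They comprise the 5 subunits Nfkb1, Nfkb2, Rela, Relb and Rel, and the 5 inhibitors Nfkbia, Nfkbib, Nfkbie, Nfkbiz and Tnfaip3. They were taken by name from the deposited expression table, and all 10 were found among its 53618 named genes. The RNA came from GFP+Lin-c-Kit+ cells sorted from the spleens of recipient mice with Usp18+/f UBCER-Cre AE9a leukemia. The leukemia had been started by a retrovirus that brought GFP and AE9a, a short form of the AML1-ETO fusion of human acute myeloid leukemia, into fetal liver cells. Cre in this line is driven by the ubiquitin C promoter and acts only after tamoxifen. The oil group (Usp18+/f, n = 3 mice) and the tamoxifen group (labelled Usp18+/Δ, n = 3 mice) therefore shared the fusion, GFP, Cre, a Usp18+/f genotype before injection, and C57BL/6 recipients that had become sick by then. The mice of the study were 8 to 12 weeks old, and cells were sorted 3 days after the first injection. No library here came from tamoxifen-treated cells without the floxed allele, so an effect of tamoxifen itself and an effect of the Usp18 allele cannot be told apart. The comparison asks whether depletion of one Usp18 allele, which encodes a negative regulator of interferon signaling, altered the NF-κB genes at the transcript level.

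NF-κB works as a dimer of Rel family proteins. In resting cells the dimer is kept in the cytoplasm by inhibitors of the IκB family, and stimuli such as TNF, IL-1 and Toll-like receptor ligands activate the IκB kinases, after which the inhibitor is degraded and the dimer enters the nucleus. Several of the genes it switches on encode its own subunits and inhibitors, so their transcripts often rise when the pathway is active, whereas much of the regulation occurs at the protein level and is not seen in RNA. In myeloid leukemia NF-κB is known mainly for its part in survival and inflammatory gene expression.

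The libraries set limits on every value below. They held between 19172471 and 23785143 reads. Values are normalized counts, that is, a gene's reads scaled by the size factor of the library. Usp18 itself went against the labels, with 217, 214 and 176 normalized counts in the oil libraries and 477, 329 and 284 in the tamoxifen libraries. All 3 tamoxifen values were above all 3 oil values, at a log2 fold change of 0.81 ± 0.25 (SE, limma adjusted p = 0.666), and 0.60 without tamoxifen 1; over all alternatives the adjusted p lay between 0.0348 and 0.861. As counts cover the whole gene, reads of the deleted allele were not told apart from those of the intact one. The groups are therefore called by their labels, oil and tamoxifen. The library labelled tamoxifen 1 stood apart, with a median correlation across genes of 0.913 with the others against 0.981 or more for the remaining 5. Only 0.00923% of its reads were mitochondrial, against 1.01% to 1.56% in the others. Its deviation from the others rose with the GC content of protein-coding genes (Spearman's rho 0.70 across genes, against -0.22 to 0.035 in the others). Fold changes are therefore given with and without this library. In bulk RNA, a difference in the number of cells of a type cannot be told apart from a difference in RNA per cell.

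A difference between the groups was not detectable for any of the 10 genes in the test over all 6 libraries, which called no gene of the whole table, and the intervals given for each gene show what size of change it leaves possible. All 10 passed the filter on low values (at least 10 normalized counts in at least 3 libraries). In limma on log2(value + 1) with Benjamini-Hochberg adjustment over the 12298 genes tested, 0 of the 10 passed an adjusted p of 0.05, where 0.0% of all genes tested did. At an unadjusted p under 0.05 there were again 0 of the 10, where 4.47% of all genes tested passed, and DESeq2 and edgeR on recovered reads called 0 of the 10 at an adjusted p of 0.05, where 0.45% and 0.0% of all genes passed. In 0 of the 10 genes did the 3 tamoxifen values lie all above or all below the 3 oil values, where 17.6% of all genes tested showed such a separation. With 1 oil library left out, the groups separated for 2, 1 and 1 of the 10 (without oil 1, 2 and 3), where 25.5%, 23.9% and 26.0% of all genes tested did. With 1 tamoxifen library left out they separated for 0, 4 and 2 of the 10 (without tamoxifen 1, 2 and 3), where 29.4%, 37.0% and 26.6% of all genes tested did. The fitted log2 fold changes were above 0 for all 10 over the 6 libraries, as in 48.4% of all genes tested, with a median of 0.37 for the 10 genes and -0.017 over all genes. This direction was not held by every gene, since Rela was below 0 with a correction for GC content, Nfkb2 with library weights, Nfkb1, Nfkb2 and Rela without tamoxifen 1, and Rel without tamoxifen 3. Without tamoxifen 1, 7 of the 10 were above 0, as in 44.8% of all genes tested. Without tamoxifen 1 the median of the 10 was 0.081, with 0 genes called and 0 at an unadjusted p under 0.05 in limma, where 0.333% and 12.1% of all genes tested passed these limits.

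**Figure D1:**
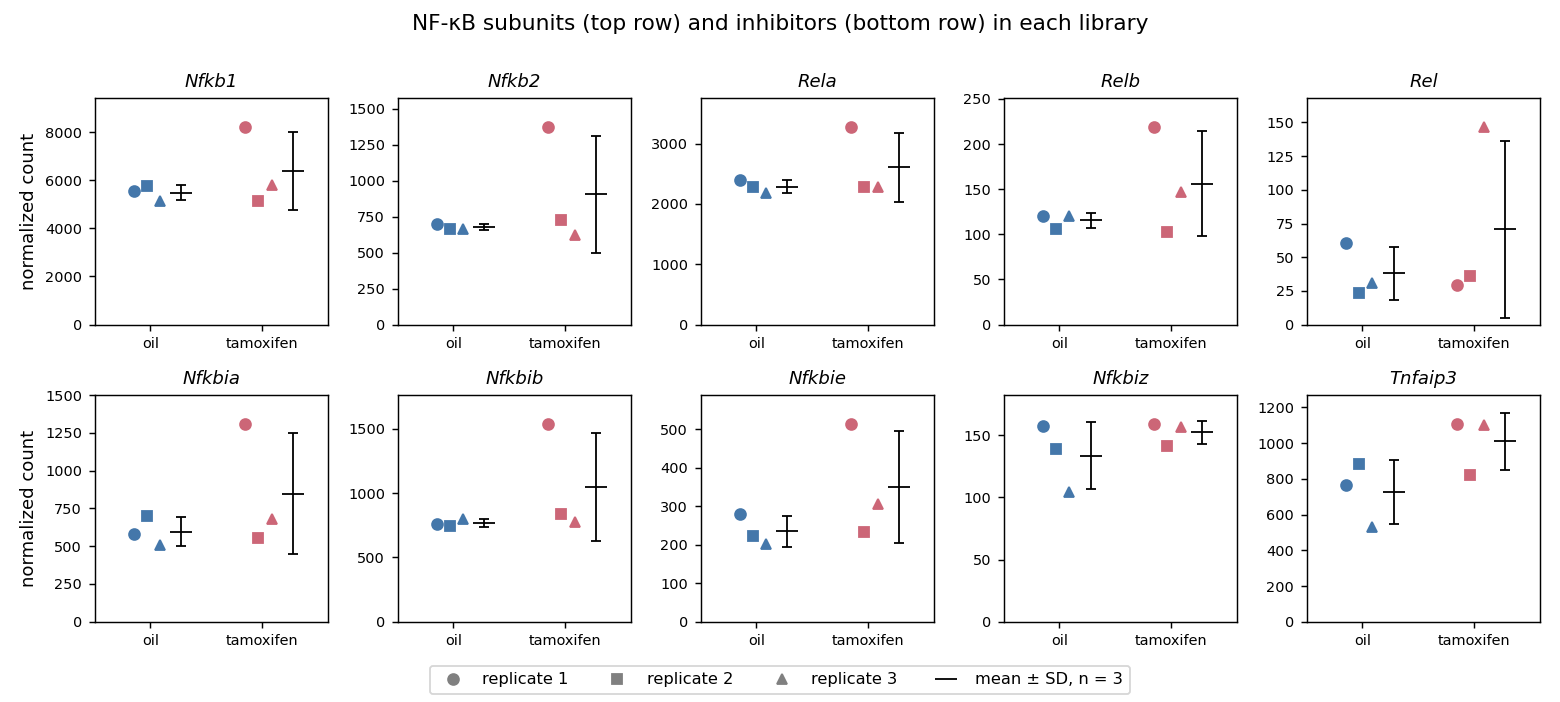
Normalized count of each gene in each of the 6 libraries, with subunits in the top row and inhibitors in the bottom row. Symbols mark the replicate number and bars the mean ± SD of 3 libraries. The library tamoxifen 1 was the highest of the 6 for 9 of the 10 genes, and tamoxifen 3 was the highest for Rel.

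Rela encodes p65, the subunit that carries the activation domain of the most common NF-κB dimer. Rela (ENSMUSG00000024927.8, GRCm38 chromosome 19, 5637483 to 5648130, on the plus strand) had 2400.1, 2281 and 2180.2 normalized counts in the oil libraries and 3271, 2280.2 and 2283 in the tamoxifen libraries. Tamoxifen 2 and 3 lay within the oil range and tamoxifen 1 alone stood above it. The means were 2287 ± 110.1 and 2611 ± 571 (SD, n = 3 each). The fitted log2 difference was 0.17 with a 95% interval from -0.27 to 0.61 (limma, adjusted p = 0.677). Without tamoxifen 1 it was -0.0024, with an interval from -0.17 to 0.17. After correction for GC content it was -0.15, with an interval from -0.47 to 0.16.

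Nfkb1 encodes p105, the precursor of the DNA-binding subunit p50 that pairs with p65. Nfkb1 (ENSMUSG00000028163.17, chromosome 3, 135584655 to 135691547, minus strand) had 5543, 5762 and 5144 normalized counts in the oil libraries and 8197, 5141 and 5816 in the tamoxifen libraries. Tamoxifen 2 was the lowest of the 6 libraries and tamoxifen 1 the highest, so that the oil values lay between them. Nfkb1 differed by 0.19 on the log2 scale (95% interval -0.29 to 0.67, limma adjusted p = 0.672), and without tamoxifen 1 it was -0.0023 with an interval from -0.20 to 0.19. Here the GC content correction moved the value up, to 0.42 with an interval from -0.38 to 1.23.

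Nfkb2 and Relb encode p100 and RelB, and the processed form of p100 pairs with RelB in the dimer of the noncanonical pathway. Nfkb2 (ENSMUSG00000025225.15, chromosome 19, 46304320 to 46312385, plus strand) had 702, 661 and 667 normalized counts in the oil libraries and 1371, 724 and 619 in the tamoxifen libraries. Tamoxifen 1 stood at 2.03 times the mean of the other 5, while tamoxifen 3 was the lowest of all. The log2 fold change of Nfkb2 was 0.33 (95% interval -0.40 to 1.06, limma adjusted p = 0.666) and -0.014 without tamoxifen 1 (interval -0.25 to 0.22). After GC content correction it was 0.0068. In GENCODE vM21, Nfkb2 shares 299 exonic bases, 6.52% of its exonic length, with Psd on the opposite strand and 531 bases with the noncoding gene AC114539.1, and as the strand setting of the counting is not given, reads of these stretches cannot be assigned to one gene.

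Relb (ENSMUSG00000002983.17, chromosome 7, 19606217 to 19629438, minus strand) had 120.4, 106 and 119.8 normalized counts in the oil libraries and 219, 103 and 146 in the tamoxifen libraries. Tamoxifen 1 and 3 were above all oil libraries and tamoxifen 2 was below them. Its log2 fold change was 0.37 (95% interval -0.37 to 1.10, limma adjusted p = 0.666), and 0.092 without tamoxifen 1. It was 0.63 without tamoxifen 2 and 0.13 after GC content correction.

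Rel encodes c-Rel, the subunit best known from lymphocytes, and was the most variable of the 10. Rel (ENSMUSG00000020275.9, chromosome 11, 23736847 to 23770970, minus strand) had 60.2, 23.2 and 30.6 normalized counts in the oil libraries and 29.4, 36.4 and 146 in the tamoxifen libraries, from 67, 24 and 33 and from 23, 36 and 161 reads. Tamoxifen 3 was at 4.07 times the mean of the other 5 libraries, and the other tamoxifen values lay within the range of the oil libraries. Its log2 fold change was 0.61 ± 0.68 (SE, 95% interval -1.01 to 2.24, limma adjusted p = 0.681). Without tamoxifen 1 it was 1.04 (interval -0.21 to 2.30), after GC content correction 0.96, and without tamoxifen 3 it was -0.096. Weights estimated for each library, which gave tamoxifen 3 the highest weight, 3.37, and tamoxifen 1 the lowest, 0.0377, moved Rel to 1.70 with a limma adjusted p of 0.0438, where 6.36% of all genes tested were called. Over the other alternatives its adjusted p lay between 0.323 and 0.910. Tamoxifen 3 also had the most named genes with a read, 20205 against 17335 to 18606 in the other libraries. The part of this in the Rel value was not tested.

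Nfkbia encodes IκBα, the inhibitor that is degraded and resynthesized most quickly when NF-κB is activated. Nfkbia (ENSMUSG00000021025.8, chromosome 12, 55489410 to 55492647, minus strand) had 582, 700.4 and 508 normalized counts in the oil libraries and 1306, 555 and 683 in the tamoxifen libraries. Tamoxifen 2 and 3 fell within the range of the oil libraries, and tamoxifen 1 stood at 2.16 times the mean of the other 5, the largest such ratio among the 10 genes. Nfkbia differed by 0.42 on the log2 scale (95% interval -0.39 to 1.22, limma adjusted p = 0.666), and 0.057 without tamoxifen 1 (interval -0.28 to 0.39). The difference was 0.67 without tamoxifen 2 and 0.30 after GC content correction.

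Nfkbib and Nfkbie encode IκBβ and IκBε, the other classical cytoplasmic inhibitors. Nfkbib (ENSMUSG00000030595.15, chromosome 7, 28758251 to 28767512, minus strand) had 764, 741 and 799 normalized counts in the oil libraries and 1534, 841 and 774 in the tamoxifen libraries. Its values in the oil libraries were among the tightest of the 10 genes, with an SD of 3.84% of the mean, and tamoxifen 3 lay inside their range. Nfkbib differed by 0.38 on the log2 scale (95% interval -0.28 to 1.04, limma adjusted p = 0.666), and 0.071 without tamoxifen 1 (interval -0.14 to 0.28). After GC content correction the difference was 0.077. On the opposite strand Nfkbib shares 42 exonic bases with Sirt2 and 314 with Ccer2, which had no reads in any library.

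Nfkbie (ENSMUSG00000023947.8, chromosome 17, 45555703 to 45563169, plus strand) had 279, 223 and 202 normalized counts in the oil libraries and 512 (tamoxifen 1), 232 and 305 in the tamoxifen libraries. Tamoxifen 2 overlapped the oil range. Its log2 fold change was 0.51 (95% interval -0.27 to 1.28, limma adjusted p = 0.666), which was 0.19 without tamoxifen 1. It was 0.76 without tamoxifen 2 and 0.31 after GC content correction.

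Nfkbiz encodes IκBζ, a nuclear member of the IκB family that acts on transcription of a subset of inflammatory genes. It is grouped here with the inhibitors by family and does not hold the dimer in the cytoplasm. Nfkbiz (ENSMUSG00000035356.17, chromosome 16, 55811375 to 55838899, minus strand) had 157, 139 and 104 normalized counts in the oil libraries and 158, 141 and 156 in the tamoxifen libraries. It was the gene that tamoxifen 1 moved least, at 1.14 times the mean of the other 5, and the lowest library was oil 3. Nfkbiz differed by 0.21 on the log2 scale (95% interval -0.34 to 0.76, limma adjusted p = 0.682), 0.18 without tamoxifen 1 and 0.040 without oil 3.

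Tnfaip3 encodes A20, a ubiquitin-editing enzyme that dampens signaling from TNF and Toll-like receptors to the IκB kinases. Tnfaip3 (ENSMUSG00000019850.11, chromosome 10, 19000910 to 19015657, minus strand) had 763, 881 and 528 normalized counts in the oil libraries and 1104, 823 and 1100.4 in the tamoxifen libraries. Tamoxifen 1 and 3 lay above all oil libraries and tamoxifen 2 lay below oil 2. The means were 724 ± 179 and 1009 ± 161 (SD, n = 3 each). Tnfaip3 differed by 0.50 on the log2 scale (95% interval -0.083 to 1.08). Its unadjusted p of 0.0816 in limma was the smallest of the 10 genes and became 0.666 on adjustment. Without tamoxifen 1 it was 0.43 (interval -0.027 to 0.88), after GC content correction 0.61 (interval -0.000097 to 1.22) and without oil 3 it was 0.29. Tnfaip3 and Nfkbiz were the genes besides Rel whose value did not rest mainly on tamoxifen 1, and in neither did the groups separate.

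**Figure D2:**
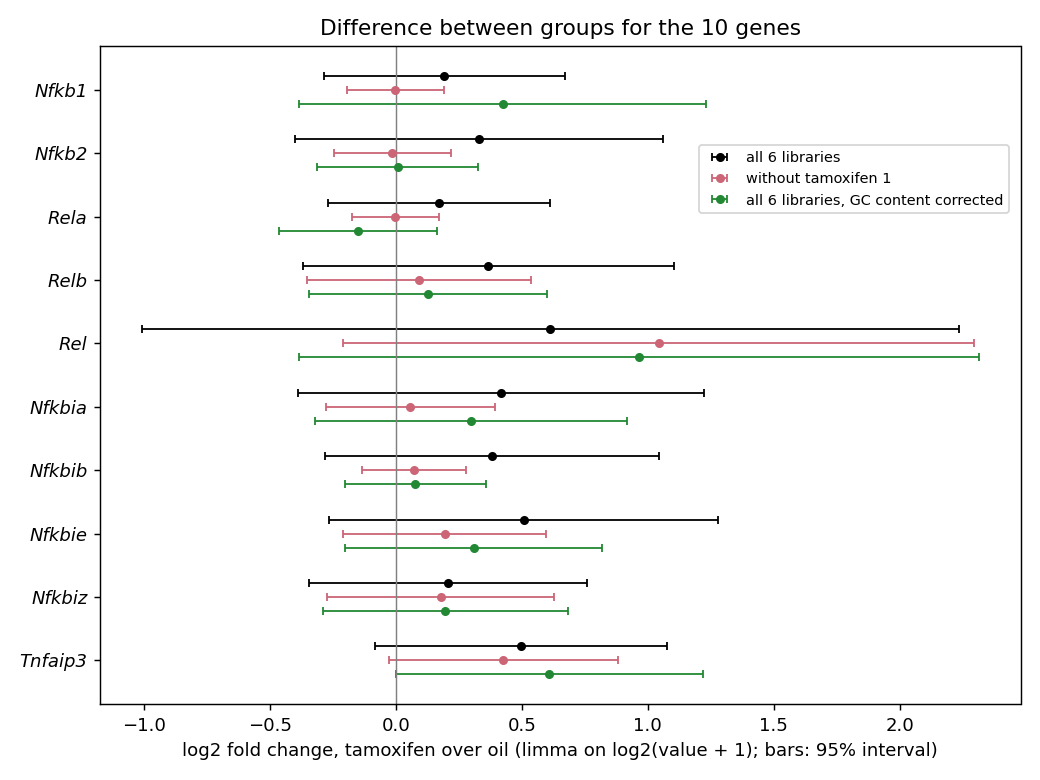
Log2 fold change of tamoxifen over oil for each gene on the log2(value + 1) scale, with 95% intervals from limma, for all 6 libraries, without tamoxifen 1, and for all 6 libraries after GC content correction. Every interval drawn includes 0, and without tamoxifen 1 those of Rela and Nfkb1 lie within 0.20 of 0.

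The 10 genes differed in base composition, and their values in tamoxifen 1 differed with it. GC content of the longest transcript ran from 42.5% for Rel and 44.9% for Nfkb1 to 59.4% for Rela and Nfkb2, and 7 of the 10 lay above the median of all genes tested, 49.7%. Tamoxifen 1 was above the mean of the other 5 libraries for 9 of the 10 genes, as for 50.0% of all genes tested, and the highest library for 9 of the 10, as for 41.1% of all genes tested. On the log2 scale its difference from the others was, in order of rising GC content, -0.66 for Rel, 0.58 for Nfkb1, 0.47 for Tnfaip3, 0.20 for Nfkbiz and 1.12 for Nfkbia. It was then 1.06 for Nfkbie, 0.88 for Relb, 0.97 for Nfkbib, 0.52 for Rela and 1.02 for Nfkb2, so that the order was not that of GC content throughout. Across the 10 genes the difference and the GC content had a Pearson's r of 0.71 and a Spearman's rho of 0.53, a description of genes that share 1 library. After the GC content correction the difference was 0.14 for both Nfkb2 and Nfkbib, and -0.36 for Rela. For Nfkb1 it was then 1.28, for Nfkbia 0.84 and for Tnfaip3 0.83.

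**Figure D3:**
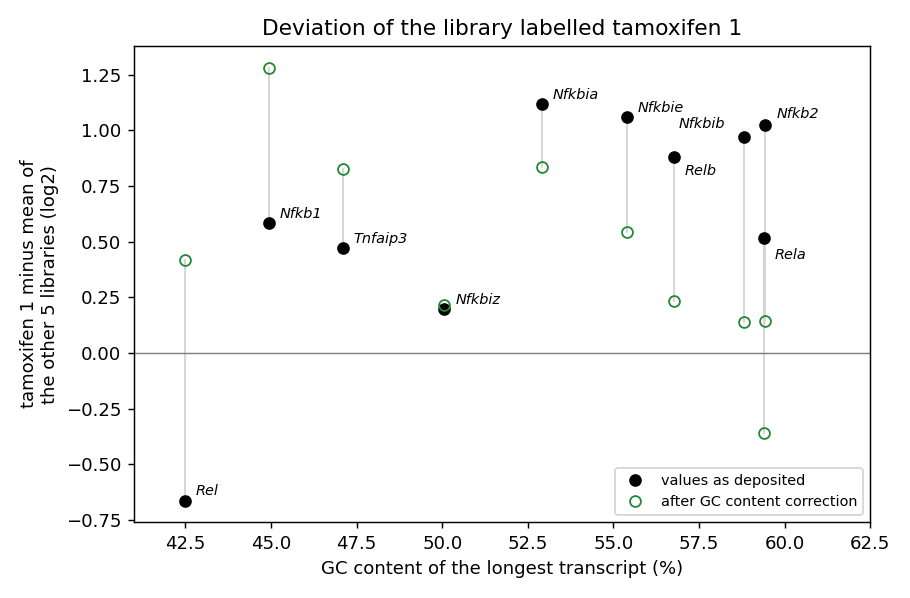
Difference between the library tamoxifen 1 and the mean of the other 5 libraries on the log2 scale, against the GC content of each gene's longest transcript, before (filled) and after (open) GC content correction. Before correction 9 of the 10 genes lie above 0 and Rel lies at -0.66; after it Nfkb2 and Nfkbib lie at 0.14 and Nfkb1 at 1.28.

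The subunit transcripts of these cells were mainly those of Rela and Nfkb1. To compare levels between genes, normalized counts were divided by the exonic length of each gene in kb, taken over the exons of all its annotated transcripts. This length was 12061 bases for Nfkb1 and 3072 for Rela, and the order below depends on it. Before the division Nfkb1 was the higher, with an oil mean of 5483 normalized counts against 2287 for Rela. Which transcripts the cells used was not tested. Per kb, Rela was the highest in the oil libraries, at 744 ± 35.8 normalized counts (SD, n = 3), above Nfkb1 at 455 ± 26.0. The range of Nfkb1 overlapped that of Nfkbia (371 ± 60.3), although Nfkb1 was the higher within each oil library. Nfkbia and Nfkbib (354 ± 13.6) overlapped and changed order between the oil libraries, so this pair did not differ beyond its spread. Nfkb2 followed at 148 ± 4.91, 2.40-fold below Nfkbib and without overlap. Tnfaip3 (100.2 ± 24.8) and Nfkbie (77.1 ± 13.1) overlapped in range, with Tnfaip3 the higher within each oil library. Relb (29.7 ± 2.07) and Nfkbiz (26.6 ± 5.39) overlapped and changed order. Rel was the lowest, at 5.09 ± 2.62, 5.22-fold below Nfkbiz, and only 6.02% of all genes tested lay lower in the oil libraries, against 86.8% below Rela.

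Rela took between 50.6% and 54.7% of the summed per-kb level of the 5 subunits in each of the 6 libraries, and Nfkb1 between 31.4% and 34.3%. Shares, ranks and sums in this paragraph all use the per-kb values and so depend on the exonic lengths. Rel took 0.562%, 0.222% and 0.312% in the oil libraries and 0.187%, 0.359% and 1.38% in the tamoxifen libraries. Rela ranked first and Rel last of the 10 genes in each of the 6 libraries, while the order between them varied: in tamoxifen 1 Nfkbia ranked 2 and Nfkb1 ranked 4, and in tamoxifen 3 Tnfaip3 ranked 5 and Nfkb2 ranked 6. The summed per-kb level of the 5 inhibitors was 0.657, 0.717 and 0.641 times that of the 5 subunits in the oil libraries and 0.889, 0.700 and 0.751 times in the tamoxifen libraries. Tamoxifen 1 and 3 lay above the oil range and tamoxifen 2 within it.

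**Figure D4:**
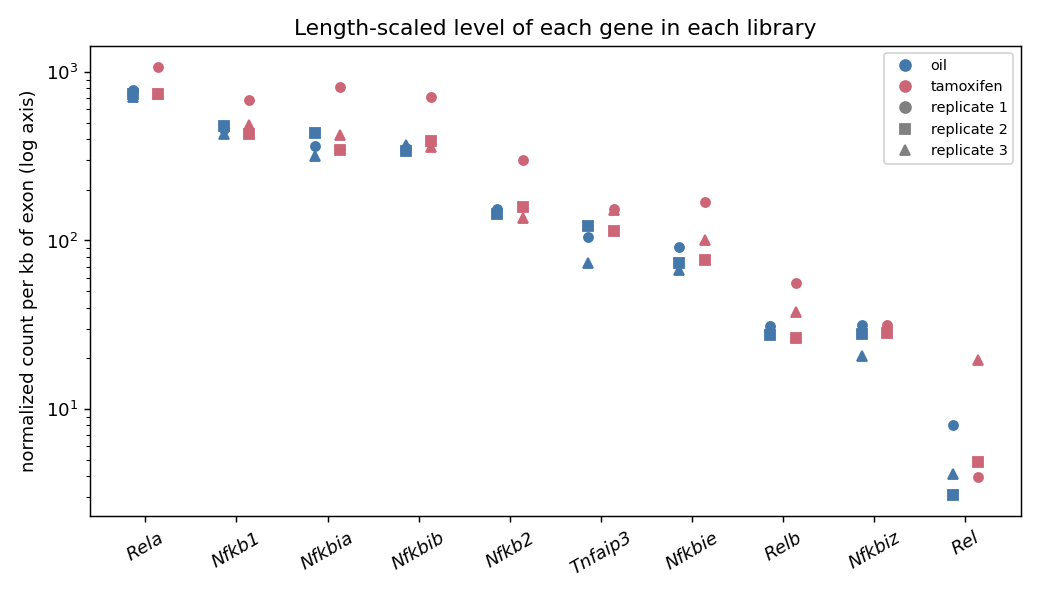
Normalized count per kb of exon (log axis) of each gene in each library, ordered by the mean of the oil libraries. Rela lies highest and Rel lowest, and the order in the oil libraries runs from 744 to 5.09 normalized counts per kb.

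Promoters of several of these genes hold the κB element to which NF-κB binds, the known basis of their feedback control. The 10-base κB consensus was searched on both strands in RefSeq windows from 250 bases before to 50 bases after each start site (GRCm38.p6). Of the 10 genes 7 matched an entry. A match was found for 5 of the 7, namely Nfkb2, Rel, Nfkbia, Nfkbie and Tnfaip3, where 9.55% of all 27025 genes in the table had one. Of the 10 windows of these 7 genes, 7 held a match, where 8.46% of all 32851 windows did. A core of the interferon response element, a GAAA and a second GAAA after 2 bases of any kind, searched on both strands in the same windows, was found in 0 of the 10 windows of these genes and in 3.44% of all windows. The 250 bases before the start site are shown for the 3 genes whose RefSeq start lies within 3 bases of the GENCODE gene start, 5′ to 3′ on the gene's strand, with κB matches in capitals.
Nfkbia, chr12:55492648-55492897, minus strand: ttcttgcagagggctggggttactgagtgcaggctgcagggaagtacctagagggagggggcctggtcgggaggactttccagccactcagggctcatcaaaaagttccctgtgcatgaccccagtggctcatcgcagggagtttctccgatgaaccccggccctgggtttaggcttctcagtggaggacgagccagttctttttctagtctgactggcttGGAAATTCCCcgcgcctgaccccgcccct
Rel, chr11:23770970-23771219, minus strand: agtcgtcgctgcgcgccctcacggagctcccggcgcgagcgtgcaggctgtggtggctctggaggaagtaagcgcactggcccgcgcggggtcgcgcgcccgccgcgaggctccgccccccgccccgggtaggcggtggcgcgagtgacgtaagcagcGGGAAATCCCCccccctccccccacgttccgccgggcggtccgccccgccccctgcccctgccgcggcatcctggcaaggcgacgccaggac
Nfkbie, chr17:45555450-45555699, plus strand: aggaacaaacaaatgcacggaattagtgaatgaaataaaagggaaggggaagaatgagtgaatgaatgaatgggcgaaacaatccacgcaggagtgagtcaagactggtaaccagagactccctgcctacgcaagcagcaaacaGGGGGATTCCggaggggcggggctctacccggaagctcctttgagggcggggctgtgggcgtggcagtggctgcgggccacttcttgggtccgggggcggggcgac

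In Nfkbia the match began 29 bases before the start site, in Rel 2 overlapping matches began 92 and 91 bases before it, and in Nfkbie the match began 106 bases before it. Tnfaip3 held GGGACACCCC and GGAAATCCCC, beginning 125 and 12 bases before its RefSeq start. The first Nfkb2 window held GGGAATTCCC, its overlapping neighbour GGAATTCCCC, and GGGGCTTTCC, beginning 39, 38 and 11 bases before the start. These are matches of letters and were not tested for binding.

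Beyond the 10 genes, 106 further genes of the pathway were examined, from ligands to targets. The expression filter was passed by 62 of them, and in limma 0 of the 62 passed an adjusted p of 0.05 in either direction, with 4 at an unadjusted p under 0.05, all higher in the tamoxifen libraries (3.23% of all genes tested were higher and 1.24% lower at this limit). DESeq2 and edgeR called 0 of them over all 6 libraries. The groups did not overlap for 8 genes that were higher and 5 that were lower, where 7.86% and 9.69% of all genes tested showed this. The median log2 fold change of the 62 was 0.038, and 0.0089 without tamoxifen 1.

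Ligands of the pathway were scarcely transcribed. None of the 10 listed, among them Tnf, Il1a, Il1b, Ltb and Il33, passed the filter, and the highest value of any was 12.7 normalized counts, for Il1b in tamoxifen 3. Of the 20 receptors 7 were tested. Tnfrsf13c, the receptor of BAFF, had 8.08, 7.72 and 4.64 normalized counts in the oil libraries and 12.8, 13.1 and 22.7 in the tamoxifen libraries, a log2 fold change of 1.12 (limma adjusted p = 0.666) that was 1.26 without tamoxifen 1. Il1rap, the shared coreceptor of the IL-1 family, had 843, 808 and 759 against 222, 641 and 628, so that its log2 fold change of -0.84 became -0.34 once tamoxifen 1 was left out. Il18r1 had a log2 fold change of 1.19, and 1.49 without tamoxifen 1, and overlapped between the groups.

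Among the IκB kinases and kinases upstream of them, 10 of 11 were tested, with a median log2 fold change of -0.027. Ikbke, which encodes the inducible kinase IKKε, had 251, 282 and 270.2 normalized counts in the oil libraries and 845, 408 and 421 in the tamoxifen libraries. All 3 tamoxifen values were above all 3 oil values, as in 7.86% of all genes tested. Ikbke differed by 0.97 ± 0.31 on the log2 scale (SE, limma unadjusted p = 0.0173, adjusted p = 0.666), and by 0.63 without tamoxifen 1 (adjusted p = 0.0819). DESeq2 without tamoxifen 1 gave 0.65 with an adjusted p of 0.00873, and the adjusted p over all alternatives lay between 0.00813 and 0.861. Tbk1, a kinase related to IKKε, and Chuk, which encodes IKKα, lay lower in all tamoxifen libraries, with log2 fold changes of -0.50 and -0.48 that were -0.14 and -0.095 without tamoxifen 1.

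Of the 20 adaptors and ubiquitin ligases 19 were tested, with a median of -0.042. Traf3, which restrains the noncanonical pathway, had 1434, 1406 and 1436 normalized counts in the oil libraries and 2542, 1685 and 1864 in the tamoxifen libraries. The groups did not overlap, and Traf3 differed by 0.49 ± 0.19 on the log2 scale (SE, limma unadjusted p = 0.0364, adjusted p = 0.666), and 0.31 without tamoxifen 1. Rbck1, a subunit of the linear ubiquitin ligase complex, and Card9, an adaptor of myeloid cells, had log2 fold changes of 0.52 and 0.72, which were 0.13 and 0.38 without tamoxifen 1. All 11 further IκB proteins and deubiquitinases were tested, with a median of 0.026. The smallest p-values among them were those of Nfkbid (log2 fold change 0.67), Itch (-0.74) and Commd1 (-0.43), and without tamoxifen 1 these were 0.24, -0.10 and -0.12.

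Of the 34 target genes 15 were tested, with a median of 0.20, and 0.019 without tamoxifen 1. The inflammatory targets Cxcl1, Ccl3 and Ccl4 had 0 reads in all 6 libraries, which at 3 reads per library allows at most 3.83 normalized counts in any of them. Others had a few reads but did not pass the filter. Cxcl10 had 0, 0.965 and 0 normalized counts in the oil libraries and 2.56, 3.03 and 6.37 in the tamoxifen libraries. Ccl5 had 0, 2.89 and 0 against 2.56, 5.05 and 5.46, and Il6 had 8.08, 2.89 and 6.50 against 2.56, 5.05 and 12.7. Csf1, a macrophage growth factor, had 7.19, 2.89 and 7.43 normalized counts in the oil libraries and 52.4, 11.1 and 17.3 in the tamoxifen libraries. Its groups did not overlap, and Csf1 differed by 1.82 ± 0.65 on the log2 scale (SE, limma unadjusted p = 0.0287, adjusted p = 0.666), and by 1.21 without tamoxifen 1. Gadd45b, a stress-response gene, differed by 0.78 on the log2 scale, by 0.70 if tamoxifen 1 was left out and by 0.30 if oil 2 was. Marcksl1 differed by 0.56, and by 0.18 without tamoxifen 1. Of the 4 genes with an unadjusted p under 0.05, none passed on adjustment in limma over all 6 libraries with equal weights. With library weights 5 of the 62 tested pathway genes were called, where 6.36% of all genes tested were. These 4 were among them, with limma adjusted p-values of 0.00813 for Ikbke, 0.0189 for Traf3, 0.0402 for Tnfrsf13c and 0.0467 for Csf1. The weights were applied to the same 6 libraries in which the 4 genes had been picked, so this was no separate test of them.

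The sort was checked by marker genes, since macrophages and lymphocytes also express several of the 10 genes. Kit, the gate gene, had between 4687 and 10976 normalized counts. The summed level of 10 macrophage markers was 106 to 260 normalized counts in the oil libraries and 302 to 394 in the tamoxifen libraries, without overlap, and the defining marker Adgre1 was at 0.929 to 6.75 and 3.83 to 11.1. The 7 neutrophil markers summed to 14.4 to 27.0 and 36.4 to 50.5, with Ly6g at 0, and the 6 B cell markers to 12.1 to 21.2 and 24.2 to 30.9, with Ms4a1 at 0. T cell markers summed to 40.5 to 68.7 and 33.6 to 104, nearly all Lck, with Cd3e, Cd8a and Cd5 at 0, all 4 NK cell markers were at 0, and the 6 dendritic cell markers summed to 85.3 to 130.2 and 84.9 to 175, nearly all Zbtb46, with Clec9a at 0. In tamoxifen 3, where Rel was highest, the macrophage marker sum was 302, the lowest of the tamoxifen libraries, and the B cell marker sum was 30.9, the highest of the 6 libraries. The part of such cells in the values of Csf1, Rel and the other genes was not tested.

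For each of the 10 genes the gene with the most similar course over the 6 libraries was found, by the root mean square difference of centred log2 values. It was Zbtb7a for Nfkb1 (0.024), Acss2 for Rela (0.027), Crebzf for Nfkb2 (0.032), Arhgap17 for Relb (0.061) and Gsta2 for Rel (0.21). For the inhibitors it was Cbfa2t3 for Nfkbia (0.075), Tap1 for Nfkbib (0.025), Cyth4 for Nfkbie (0.032), Themis2 for Nfkbiz (0.071) and Tsc22d1 for Tnfaip3 (0.074). Rel had the loosest match. Tamoxifen 1 is one of the 6 points behind each of these values, and Tap1, an antigen peptide transporter, had 4143 normalized counts there against 2071 to 2230 in the others.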

How the data were processed

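RNA was extracted with Trizol from sorted cells of 6 mice, 1 library per mouse. Per the labels and the study's methods, reads were aligned to mm10 with STAR and processed with DESeq2; versions, annotation, strand setting and filters are not given in the sources used here. The values the authors deposited are a normalized signal, that is, read counts over a size factor of the library. Dividing by the smallest step between values within a library gave whole reads for 100% of the genes (tolerance 0.01). The 1832 of 55450 rows without a gene name (0.0400% to 0.0614% of reads) were left out.

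The 12298 named genes that reached 10 normalized counts in 3 libraries entered limma 3.58.1 (R 4.3.3) as log2(value + 1), a scale on which low genes change less than they do in truth. Moderation used a mean-variance trend, and two-sided p-values were adjusted by Benjamini-Hochberg over all of these genes, with 0.05 as the limit. Alternatives were edgeR (4.0.16) and DESeq2 (1.42.0) on recovered reads, other scalings, pseudocounts of 0.5 and 5, no filter, the replicate block, a GC content correction (loess, span 0.3, no group information), library weights, and fits lacking one library each. The limma, edgeR and DESeq2 fits over 6 libraries were first tested on simulated data with known changes. The simulated data had the same dispersion for every gene and no library that stood apart like tamoxifen 1. They therefore do not show what size of change the fits can detect here. An exact permutation test of 3 against 3 can give no p below 0.1 and was not used. A count of 0 was taken to allow 3 reads, which covers counting error alone because molecules were not tagged.

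Coordinates, exonic length (exons of all transcripts joined) and GC content (longest transcript) were taken by symbol from GENCODE vM21 (GRCm38). This annotation matched 51944 of 53618 named rows. Promoters were taken from RefSeq (GRCm38.p6). Named genes were the 10 genes, Usp18, the 3 tested genes of each pathway list with the smallest unadjusted p, and the gene most like each of the 10; any other gene was chosen after its values were seen. Members and lists were chosen with earlier results of these data known. Replicate numbers were not found to pair libraries. Values of some marker genes are not reported here.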

Additional observations from a re-analysis of the deposited data

How the results depend on the processing

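Of 190 values of the 10 genes under 19 alternatives, 182 kept their direction and their side of the threshold. Leaving out one library in turn moved the log2 fold change between -0.0023 and 0.33 for Nfkb1, between -0.014 and 0.56 for Nfkb2 and between -0.0024 and 0.26 for Rela, each lowest without tamoxifen replicate 1, and between -0.096 and 1.04 for Rel, lowest without tamoxifen replicate 3. With library weights Nfkb2 was at -0.061. The threshold was passed by 1 of the 10 genes (Rel) and by 5 of the 62 further pathway genes tested (Ikbke, Traf3, Tnfrsf13c, Csf1 and Il1r1), where 6.36% of all genes tested passed. Usp18 also passed, at 0.52. With the GC content correction Rela was at -0.15, which the replicate block leaves at -0.15, since a block cannot move an estimate in this balanced design. Leaving out one library in turn gave between 0 and 4 of the 10 genes whose groups did not overlap, where 23.9% to 37.0% of all genes tested did not overlap, and in limma 0 of the 10 genes and 0 pathway genes called. At an unadjusted p under 0.05 limma gave 4 pathway genes and 550 genes in all.

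Over all genes, DESeq2 called 71, the GC content correction 2, library weights 782, and fits leaving out one library 0 to 41, the last without tamoxifen replicate 1. Chosen after seeing the data, fits without tamoxifen replicate 1 called 230 genes in DESeq2 and 46 in edgeR, with 1 pathway gene (Ikbke) in DESeq2. The cause of these differences was not tested. The deviations of same-numbered libraries correlated at -0.024, 0.061 and -0.15, and with the replicate block 0 genes were called. Scaling moved the median of all genes tested to between -0.041 (TMM) and 0.051 (upper quartile) in limma. Over 24247 genes without the expression filter it was 0.11 in DESeq2 and 0.040 in limma. With 3 libraries a group, the interval of Rel, the lowest of the 10 genes, ran from -1.01 to 2.24.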

Other observations

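Il1rl1, which encodes the receptor of IL-33 and signals to NF-κB through MyD88, was the most abundant of the 20 listed receptors, and was noticed after its values were seen. It had 31601 to 40978 normalized counts in the oil libraries and 16744, 34114 and 35489 in the tamoxifen libraries, and its ligand Il33 had 0 reads in all 6 libraries. The log2 fold change of Il1rl1 was -0.44 (limma adjusted p = 0.666), and -0.085 without tamoxifen 1. Myd88, the adaptor, had 965 to 1096 normalized counts across the libraries.

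The marker check also showed erythroid genes at high levels in cells sorted as leukemia cells. Klf1, a transcription factor of red cell precursors, had 5248, 5749 and 5794 normalized counts in the oil libraries and 11837, 5413 and 4942 in the tamoxifen libraries. Epor, the erythropoietin receptor, had 1390.5, 1455 and 1493 and 2772, 1283 and 1241. Ptprc, the pan-leukocyte gene that encodes CD45, had between 0.898 and 8.08 normalized counts in each of the 6 libraries, and Itgam at most 1.01. The cells that carried these transcripts could not be identified from bulk RNA.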
